A study of Mus musculus with 2 samples.

Results

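Type 1 dendritic cells of the mouse lung were chosen by the transcripts they held. A member was a cell with at most 10% of its unique molecular identifiers (UMIs, tags that each mark 1 captured transcript) on mitochondrial genes. It held at least 1 UMI of Xcr1 or Clec9a, at least 1 UMI of 2 or more of Naaa, Irf8, Cd24a, Wdfy4 and Itgae, and no UMI of Siglech, Cd79a, Cd3e or Ccr7. Of the 15453 deposited cells 300 met the rule, 84 of 8280 in the control library and 216 of 7173 in the fibrosis library. Each library came from 1 lung of a male C57Bl/6J mouse aged 3 months, with no genetic change named. Both mice had been given 100 µg of particles through the trachea 14 days before the lungs were digested. The protocol names titanium dioxide and crocidolite, a fibrous asbestos that scars the lung, and does not tie either to a mouse. The names control and fibrosis are those of the labels. With 1 library in each group no difference has a replicate check, no test between the groups was possible and no p-value is given. Intervals are 95% intervals of counting error alone.

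Type 1 conventional dendritic cells take up dying cells and present their antigens on MHC class I to CD8 T cells, a process called cross-presentation. Their development depends on the transcription factors IRF8, BATF3 and ID2 and on the growth factor receptor FLT3. CLEC9A binds actin filaments exposed on dead cells, and XCR1 is the receptor for a chemokine made by activated CD8 T cells and NK cells. In the lung these cells lie under the airway epithelium, carry the integrin CD103 (Itgae) and often langerin (Cd207), and move to lymph nodes after they induce Ccr7.

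Promoter windows of 250 bases before the RefSeq start (GRCm38.p6) are shown for the 2 genes that set the rule and for 2 genes that followed the rule without being part of it. They are written 5′ to 3′ on the strand of the gene, with motif matches in capitals. The Xcr1 window lies at chr9:123862030-123862279 on the minus strand. The Clec9a window lies at chr6:129408612-129408861 on the plus strand. The Cd207 window lies at chr6:83677858-83678107 on the minus strand. The Ifi205 window lies at chr1:174031756-174032005 on the minus strand.
Xcr1: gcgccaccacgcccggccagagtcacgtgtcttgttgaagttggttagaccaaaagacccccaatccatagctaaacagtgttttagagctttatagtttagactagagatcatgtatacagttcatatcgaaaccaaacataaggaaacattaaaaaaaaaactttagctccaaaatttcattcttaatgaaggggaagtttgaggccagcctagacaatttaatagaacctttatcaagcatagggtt
Clec9a: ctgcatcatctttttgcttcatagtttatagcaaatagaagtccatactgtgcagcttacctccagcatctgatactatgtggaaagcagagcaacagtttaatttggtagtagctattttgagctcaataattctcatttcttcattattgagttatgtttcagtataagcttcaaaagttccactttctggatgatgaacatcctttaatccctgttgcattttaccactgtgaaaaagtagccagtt
Cd207: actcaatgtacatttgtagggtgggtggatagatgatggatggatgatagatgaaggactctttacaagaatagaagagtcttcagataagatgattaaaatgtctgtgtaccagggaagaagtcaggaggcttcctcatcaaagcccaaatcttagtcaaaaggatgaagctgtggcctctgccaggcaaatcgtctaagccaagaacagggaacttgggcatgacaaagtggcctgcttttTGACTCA
Ifi205: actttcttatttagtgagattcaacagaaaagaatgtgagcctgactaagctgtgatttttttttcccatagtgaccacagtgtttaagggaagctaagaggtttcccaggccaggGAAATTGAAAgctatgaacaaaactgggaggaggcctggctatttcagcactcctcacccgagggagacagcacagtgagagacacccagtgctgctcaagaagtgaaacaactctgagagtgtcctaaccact
The letters of 3 motifs bound by families of transcription factors that act in dendritic cells were searched on both strands, and they may overlap one another. An AP-1 type motif, TGANTCA, occurred in 6.75% of 32851 windows of the same length. An IRF type motif, GAAA followed by any 2 bases and GAAA, occurred in 2.98%. A PU.1-IRF type motif, GGAA followed by any 2 bases and GAAA, occurred in 2.30%. Of 9 genes searched 7 had a window. Cd207 held 1 AP-1 type match whose first base lies 7 bases before the start. Ifi205 held 1 IRF type match whose first base lies 134 bases before the start. Xcr1, Clec9a, Cyp8b1, Gcsam and Tbc1d4 had no match to these letters in these windows, and a match is not a measured binding site.

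The members had medians of 6275.5 UMIs and 1837.5 genes per cell in the control library and 6587 UMIs and 1900.5 genes in the fibrosis library. Together they held 552437 and 1596353 UMIs, so that levels in the control library rest on fewer counts. Xcr1 and Clec9a were both seen in 34 control and 86 fibrosis members. In 26 control and 76 fibrosis members the rule rested on a single UMI of the pair. The libraries shared 89 barcodes, which 2 control and 4 fibrosis members carried, but no barcode was a member in both. Members just inside the rule, with 1 UMI of Xcr1 or Clec9a and 2 helper genes, numbered 5 and 23. The 5 control cells of that kind had 6080 CPM of Cst3 (counts of the gene scaled to a fixed total of UMIs) and Batf3 in 40.0% of cells. The 23 fibrosis cells had 1256 CPM and 8.70%. The 57 control and 139 fibrosis cells with at least 2 such UMIs and 3 helpers had 26351 and 22219 CPM of Cst3 and Batf3 in 61.4% and 68.3%. Just outside the rule, 12 control and 7 fibrosis cells had 1 such UMI and 1 helper, and none of them held Batf3. A further 420 control and 483 fibrosis cells had at least 3 helpers but no UMI of Xcr1 or Clec9a. They had 2745 and 2674 CPM of Cst3, and Batf3 in 16.7% and 22.6% of cells, above the share in the fibrosis cells just inside the rule.

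A number of members also carried transcripts that define another cell type. With at least 2 such markers and 3 UMIs as the criterion, 21 control members (25.0%, exact Clopper-Pearson interval 16.2 to 35.6) and 72 fibrosis members (33.3%, 27.1 to 40.0) did so. Alveolar macrophage markers were found in 7 control and 33 fibrosis members, markers of AT2 cells (the surfactant-making cells of the alveolus) in 2 and 14, neutrophil markers in 4 and 10, and type 2 dendritic cell markers in 3 and 13. These mixed members had medians of 6369 and 7917 UMIs, against 6234 and 6281.5 in the other 63 control and 144 fibrosis members, which are called unmixed here. A doublet score removed 6 control and 14 fibrosis members, and all of these were mixed. Fewer than 5 UMIs of the MHC class II gene H2-Aa were held by 7 control and 25 fibrosis members, of which 6 and 24 were mixed. The mixed members held 97.0% of the control and 97.1% of the fibrosis UMIs of Chil3, a macrophage gene, among all members. The criterion was chosen after these values had been seen, so the counts of each gene list below are given for all members and for unmixed members. Values of a gene are for all members unless unmixed members are named.

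Type 1 dendritic cells made up 1.05% of kept control cells (interval 0.836 to 1.29) and 3.11% of kept fibrosis cells (2.71 to 3.55). Among unmixed cells the shares were 0.785% (0.604 to 1.00) and 2.07% (1.75 to 2.44). Among cells with Ptprc, the pan-leukocyte marker CD45, they were 1.27% (0.978 to 1.61) and 4.50% (3.87 to 5.19), and 0.935% and 2.91% for unmixed members. The share was thus higher in the fibrosis library on each of these scales, by 2.06 percentage points among all kept cells (interval 1.61 to 2.54). Within the dendritic cells taken by the rules for type 1, type 2 and Ccr7-positive cells, type 1 cells made up 54.2% (46.0 to 62.2) and 48.4% (43.7 to 53.2), and these intervals overlap. With unmixed members alone in place of all members the shares were 47.0% (38.3 to 55.8) and 38.5% (33.5 to 43.6). Type 2 dendritic cells, taken by Cd209a and helper genes, went from 65 to 159 cells and Ccr7-positive dendritic cells from 6 to 71. Plasmacytoid dendritic cells, taken by Siglech, went from 69 to 48. Whether 2 mice of 1 group would differ as much was not measured.

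**Figure D1:**
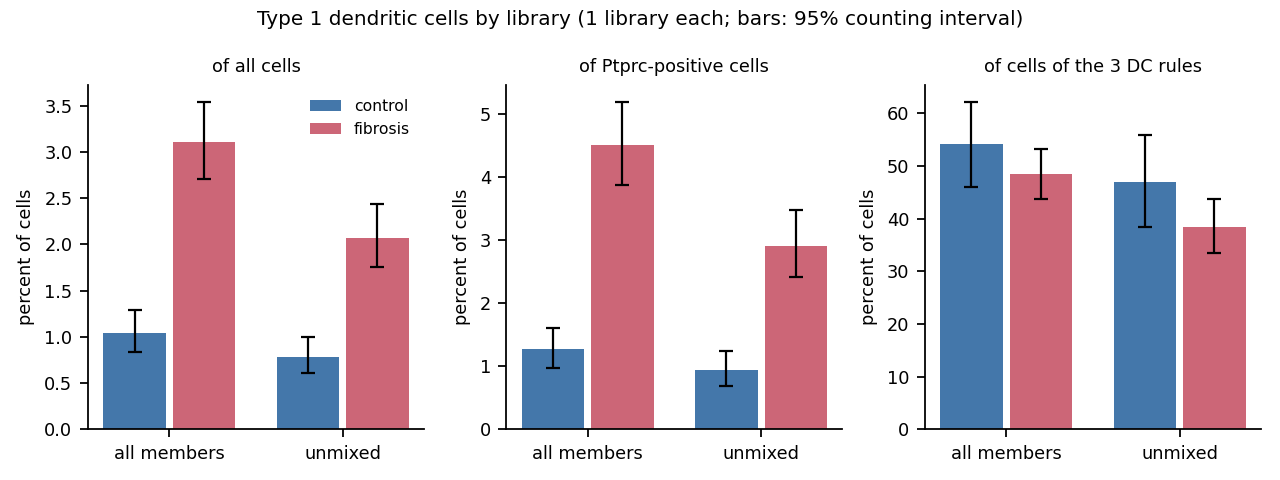
Type 1 dendritic cells as a percent of cells (vertical axes) in the control library (blue) and the fibrosis library (red), for all members and for unmixed members, over 3 denominators. Bars are the single library value and whiskers the exact 95% counting interval. The fibrosis bars stand at 3.11% of all cells and 4.50% of Ptprc-positive cells, above 1.05% and 1.27% in the control, while among cells of the 3 dendritic cell rules they are lower.

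The genes of the rule are given as a description, because the rule required them. Xcr1 stood at 252 CPM in the control and 216 CPM in the fibrosis members, and Clec9a at 152 and 150 CPM. Neither had a UMI in the type 2 dendritic cells, whose rule excluded both. Irf8, which drives the lineage, stood at 1524 and 1290 CPM in members. It stood at 11.9 and 23.6 CPM in type 2 dendritic cells and at 2556 and 2528 CPM in plasmacytoid dendritic cells. Naaa, a lysosomal amidase, stood at 1229 and 1141 CPM against 224 and 287 CPM in type 2 cells. Itgae stood at 147 CPM in both libraries, against 0 and 19.1 CPM in type 2 cells. With every cell thinned to 1000 UMIs, Xcr1 was seen in 22.6% of control and 23.1% of fibrosis members, against 75.0% and 72.2% without thinning. In B cells, which lack the receptor, the thinned share was 0.120% and 0%.

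Outside the rule, 24 of 3123 genes with at least 20 UMIs in each library were more than 2-fold above the highest of the other classes with at least 50 cells in each library. In 7 the excess was above 4-fold, and 21 of the 24 were also among the 33 such genes of unmixed members. The limit of 50 cells left out Ccr7-positive dendritic cells (6 control cells) and plasmacytoid dendritic cells (48 fibrosis cells). These counts thus do not set the members apart from those cells. Of the 7 genes, Tbc1d4 was higher in Ccr7-positive cells, as given below. Cd207, which encodes langerin, a lectin that binds sugars on pathogens, stood at 139 CPM in control and 97.7 CPM in fibrosis members. It had no UMI in 65 control and 159 fibrosis type 2 dendritic cells, and 40.5% and 31.5% of members held it. Ifi205, a member of the interferon-inducible p200 family, stood at 192 and 149 CPM against 2.99 and 1.12 CPM in type 2 cells. Gcsam stood at 97.7 and 91.5 CPM with no UMI in type 2 cells. Cyp8b1, a sterol hydroxylase of bile acid synthesis in the liver, stood at 39.8 and 22.6 CPM. It had 0 UMIs in type 2 and Ccr7-positive dendritic cells, T cells, NK cells, macrophages, monocytes, AT2 cells and endothelium of both libraries. Its UMIs in members were only 22 and 36, so the interval of its level is wide.

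Several of these genes are known parts of the type 1 programme. Tlr3, the receptor for double-stranded RNA, stood at 110 and 129 CPM, against 2.99 and 6.73 CPM in type 2 cells. Rab7b, a GTPase of late endosomes, stood at 286 and 177 CPM, against 2.99 and 4.49 CPM. Type 2 cells were not the nearest class for either gene. Members stood above endothelium in Tlr3 by a log2 ratio of 1.60 and 2.39. They stood above interstitial macrophages in Rab7b by 1.62 and 1.00. Cst3, an inhibitor of cysteine proteases that is a known mark of conventional dendritic cells, stood at 25098 and 18017 CPM against 10255 and 8070 CPM. Batf3 did not set the members apart. It stood at 185 and 170 CPM in members, 83.6 and 139 CPM in type 2 cells and 317 and 266 CPM in Ccr7-positive cells. Tbc1d4, a Rab GTPase activator, stood at 181 and 148 CPM in members but at 882 and 808 CPM in Ccr7-positive dendritic cells, of which the control library had only 6. Values of 1 gene can be compared across classes, but UMIs from the 3′ end do not rank different genes by amount of RNA without regard to capture.

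**Figure D2:**
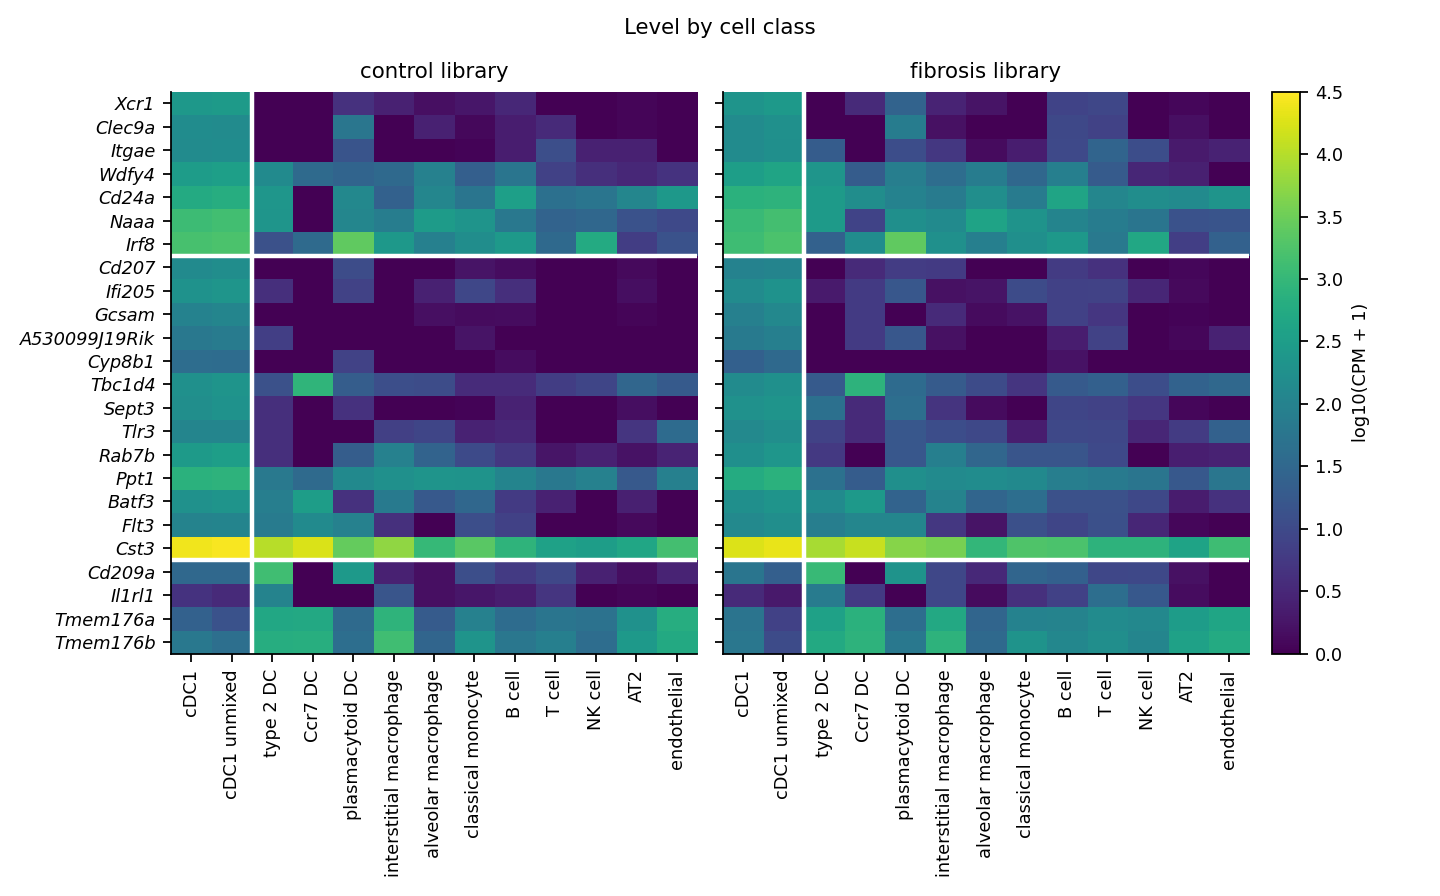
Level of rule genes (top block), companion and programme genes (middle block) and type 2 dendritic cell genes (bottom block) in each cell class (columns), as colour on a scale of log10(CPM + 1), for the control library (left) and the fibrosis library (right). Xcr1, Clec9a, Cd207, Gcsam and Cyp8b1 are high in the type 1 columns and near 0 in type 2 cells of both libraries, while Tbc1d4 is highest in Ccr7-positive cells.

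Set against type 2 dendritic cells, 124 of 4473 genes were more than 2-fold higher in type 1 cells in both libraries and 104 were more than 2-fold lower. Among unmixed members the numbers were 111 and 186 of 3765. The type 2 cells were not filtered for markers of other cells, so the count of 186 was in part set by a filter on the members alone. It holds Sftpc of AT2 cells, at 1103 and 1184 CPM in unmixed members against 10156 and 12416 CPM in type 2 cells. The 124 genes higher among all members include macrophage genes carried mostly by mixed members. One was Chil3, at 1010 and 3887 CPM against 206 and 514 CPM in type 2 cells. Besides the companion genes described above, Barx2, a homeobox factor, stood at 38.0 and 20.7 CPM with no UMI in type 2 cells. Ly75, the endocytic receptor DEC-205, stood at 48.9 and 38.8 CPM against 2.99 and 2.24 CPM. On the lower side stood Il1rl1, the IL-33 receptor, with 3.62 and 2.51 CPM in type 1 cells against 102 and 74.1 CPM in type 2 cells. Tmem176b, an intracellular channel protein, stood at 61.5 and 60.8 CPM against 636 and 539 CPM. Itgam (CD11b), the integrin used to sort type 2 cells, stood at 7.24 and 18.8 CPM against 95.6 and 113 CPM. S100a4, a calcium-binding protein, stood at 214 and 64.5 CPM against 1258 and 783 CPM. Sirpa, another type 2 surface marker, stood at 47.1 and 53.2 CPM in all members but at 9.93 and 5.31 CPM in unmixed ones. Its level in type 2 cells was 128 and 108 CPM. Flt3, Zbtb46, Itgax and Ccl17 helped to choose the type 2 cells, so a level of these genes in type 2 cells is in part set by that rule.

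Members also differed among themselves. With each cell thinned to 1000 UMIs, the variance over the mean of a gene across unmixed cells had a median over 757 genes of 1.06 in control cells and 1.05 in fibrosis cells, where 1 is the value for pure counting. For Cst3 it was 5.97 and 5.54 and for Cd74, the MHC class II chaperone, 5.27 and 5.62. For H2-Ab1, which encodes the beta chain of an MHC class II molecule, it was 3.18 and 3.12. Ccl17, a chemokine for CCR4-bearing T cells, reached 6.23 and 3.14. Plac8, a gene of immature myeloid cells, reached 2.92 and 3.00, and Hmgb2, a chromatin protein high in dividing cells, 3.61 and 2.54. Among all members, ordered by the lower of the 2 libraries, the index was highest for Sftpc of AT2 cells at 116 and 98.4, S100a8 of neutrophils at 31.7 and 32.4, and Chil3 at 16.2 and 62.6. In the control library S100a9, the partner of S100a8, stood at 34.5, above both S100a8 and Chil3.

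Between the libraries, 4354 genes with at least 50 UMIs over all members were compared as the log2 ratio of fibrosis to control CPM, with 0.5 UMI added. More than 2-fold higher in the fibrosis library were 170 genes (3.90%), and 48 (1.10%) were more than 2-fold lower. Among unmixed members 56 of 2803 genes (2.00%) were higher and 44 (1.57%) lower. The median log2 ratio of all genes was -0.05, and -0.06 among unmixed members. The interval of the ratio lay below 0 in 446 genes (10.2%) and above 0 in 362 (8.31%). Among unmixed members it lay below 0 in 306 (10.9%) and above in 204 (7.28%). Genes with more UMIs have narrower intervals, so a list of highly expressed genes holds more intervals that exclude 0. The counts of each gene list below are to be read beside these shares of all genes. Part of these differences was shared with other cells. AY036118 had a log2 ratio of 3.70 in members and a median of 3.86 over 9 other classes, and Hist1h2ap, a histone gene with near-identical copies, had 2.92 against 3.25. Rps27rt, which shares its sequence with a ribosomal protein gene, had -1.90 against -1.77. Across 2795 genes of unmixed members the ratio and the median of the other classes had a Pearson correlation of 0.48, where all classes share the 2 libraries. The excess of the members over the other classes was above 2-fold in 88 of 4337 genes (2.03%) and below it in 71 (1.64%). Among unmixed members 35 of 2795 genes (1.25%) stood above and 54 (1.93%) below.

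**Figure D3:**
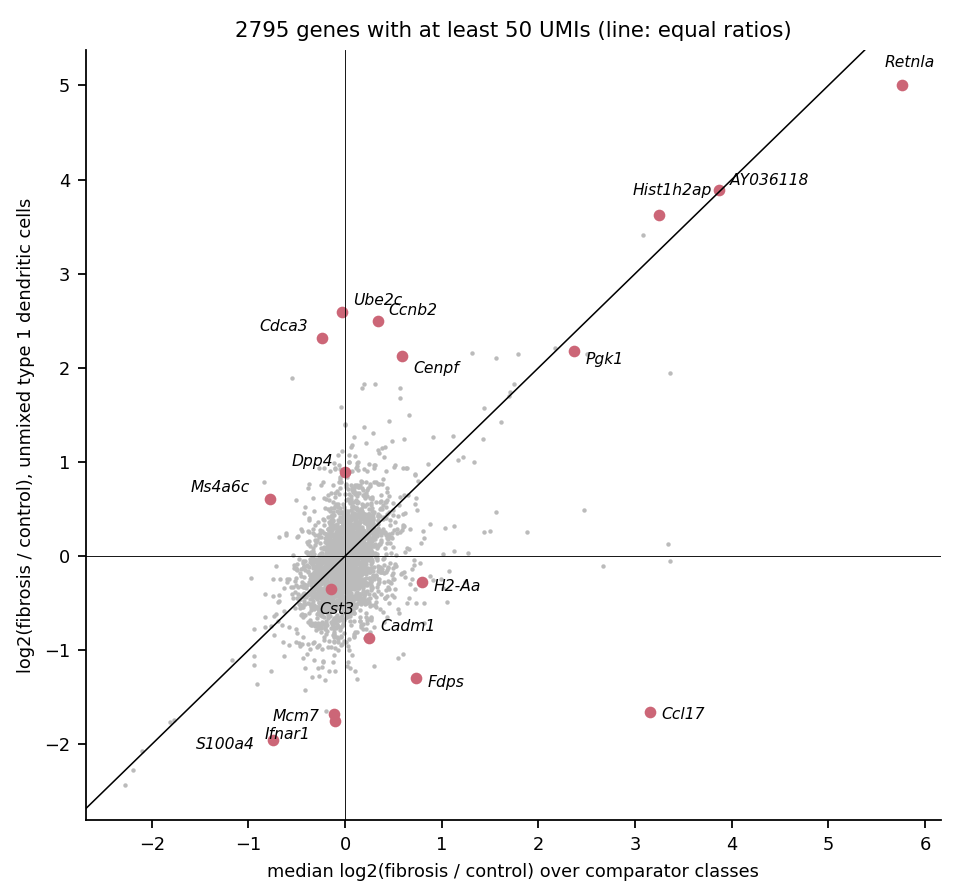
Log2 ratio of fibrosis to control in unmixed type 1 dendritic cells (vertical axis) against the median log2 ratio over the other cell classes (horizontal axis), 1 point for each of 2795 genes, with named genes in red and the line of equal ratios. AY036118, Hist1h2ap and Pgk1 lie close to the line, Ube2c, Ccnb2 and Cdca3 above it, and Ccl17, Ifnar1, Mcm7 and Fdps below it.

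The genes of antigen presentation on MHC class II were mostly slightly lower in the fibrosis library, and none differed by more than 2-fold. Of 13 genes tested, 7 had an interval below 0 and 1 above it, with a median log2 ratio of -0.36. In unmixed members it was 6 below and none above of 12, with a median of -0.24. The median was -0.15 with at least 2 UMIs of Xcr1 and Clec9a required. With cells thinned before the rule was applied, which left 27 and 72 members, it was -0.088. H2-Aa stood at 7508 CPM in control and 5839 CPM in fibrosis members (log2 ratio -0.36, interval -0.42 to -0.31). In unmixed members it stood at 8880 and 7324 CPM (-0.28, -0.34 to -0.22). Cd74 stood at 22929 and 17638 CPM (-0.38, -0.41 to -0.35), with -0.28 in unmixed members. H2-DMb1, which helps to load peptides, stood at 1055 and 705 CPM (-0.58, -0.73 to -0.43), and at -0.51 in unmixed members. Ciita, the master regulator of these genes, stood at 76.0 and 63.9 CPM (-0.26, -0.78 to 0.30) in all members and at 79.5 and 79.7 CPM in unmixed ones. In type 2 dendritic cells the ratio of H2-Aa was -0.30. Over the other classes the median ratio of H2-Aa was 0.80. With cells thinned before the rule the ratio of H2-Aa was 0.044.

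Of the genes of MHC class I and cross-presentation none was past 2-fold. Of 28 tested, 13 had an interval below 0 and 1 above, with a median of -0.25. In unmixed members 7 of 26 lay below and none above, with a median of -0.21. H2-D1, a classical class I heavy chain, stood at 1345 and 970 CPM (-0.47, -0.60 to -0.34), with -0.51 in unmixed members. H2-T23, the non-classical molecule Qa-1, stood at 95.9 and 54.5 CPM (-0.82, -1.32 to -0.29), with -0.73 in unmixed members. Tapbp, which bridges class I to the peptide transporter, stood at 205 and 142 CPM (-0.53, -0.86 to -0.19). Calr, a chaperone of the same complex, stood at 603 and 448 CPM (-0.43, -0.62 to -0.24). H2-K1, the other classical heavy chain, stood at 722 and 677 CPM with an interval of -0.26 to 0.07. B2m, the shared light chain, stood at 2138 and 1969 CPM (-0.12, -0.22 to -0.02). Reads of class I genes can be shared among near-identical copies, so their values are uncertain.

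Of the type 1 programme outside the rule, 28 genes were tested and none was past 2-fold. In 10 the interval lay below 0 and in 1 above it, with a median of -0.17. In unmixed members it was 6 below and 3 above of 24, with a median of -0.15. With cells thinned before the rule the median turned to 0.27. The excess over the other classes had a median of -0.63, and 5 of 26 genes were more than 2-fold below and 1 above. Other classes can hold few UMIs of such genes. Without thinning, Tlr3 was seen in 0.479% of control and 2.30% of fibrosis B cells. A negative excess is thus not by itself a fall in members. Whether RNA carried over from other cells set these ratios was not tested. Cadm1, an adhesion molecule known to mark type 1 cells, stood at 205 CPM in control and 107 CPM in fibrosis members (-0.94, -1.28 to -0.58). The value in unmixed members was -0.87, and over the other classes the median was 0.25. Rab7b had -0.70 (-0.98 to -0.40), and Xlr -0.79 (-1.08 to -0.49). Rab7b was 0.62 with cells thinned before the rule. Hepacam2 had -0.69 (-1.02 to -0.35) in all and -0.34 (-0.72 to 0.07) in unmixed members. Cst3 had -0.48 (-0.51 to -0.45) in all and -0.35 in unmixed members. Dpp4, the surface peptidase CD26, went the other way, from 52.5 to 83.9 CPM (0.66, 0.09 to 1.31), and had 0.89 in unmixed members. Flt3 stood at 103 and 132 CPM (0.35, -0.07 to 0.81), and its interval lay above 0 in unmixed members (0.61, 0.13 to 1.15). Tlr3 showed the same pattern, with 0.22 (-0.19 to 0.66) in all and 0.54 (0.06 to 1.06) in unmixed members.

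Of the transcription factors that specify the lineage, Batf3 had a ratio near 0, and Id2 and Irf8 were slightly lower in the fibrosis library among all members. Batf3 had a log2 ratio of -0.12 (-0.45 to 0.23). Id2 had -0.22 (-0.34 to -0.09) in all members and 0.03 (-0.12 to 0.17) in unmixed ones. Irf8, part of the rule, was lower among all fibrosis members, at the levels given above. In unmixed members it had 1704 CPM in both libraries. Zbtb46, a factor of all conventional dendritic cells, stood at 21.7 and 37.6 CPM (0.74, -0.12 to 1.82). It had 12 control and 60 fibrosis UMIs. Without the cell of most UMIs in each library its ratio was 0.94 (0.02 to 2.13). Of 24 listed factors tested, 2 had an interval below 0 and none above, and none was past 2-fold. In unmixed members it was 1 below of 18. Spi1, which encodes PU.1, stood at 462 and 323 CPM (-0.52, -0.73 to -0.29), with -0.36 in unmixed members, and was the other factor besides Id2.

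**Figure D4:**
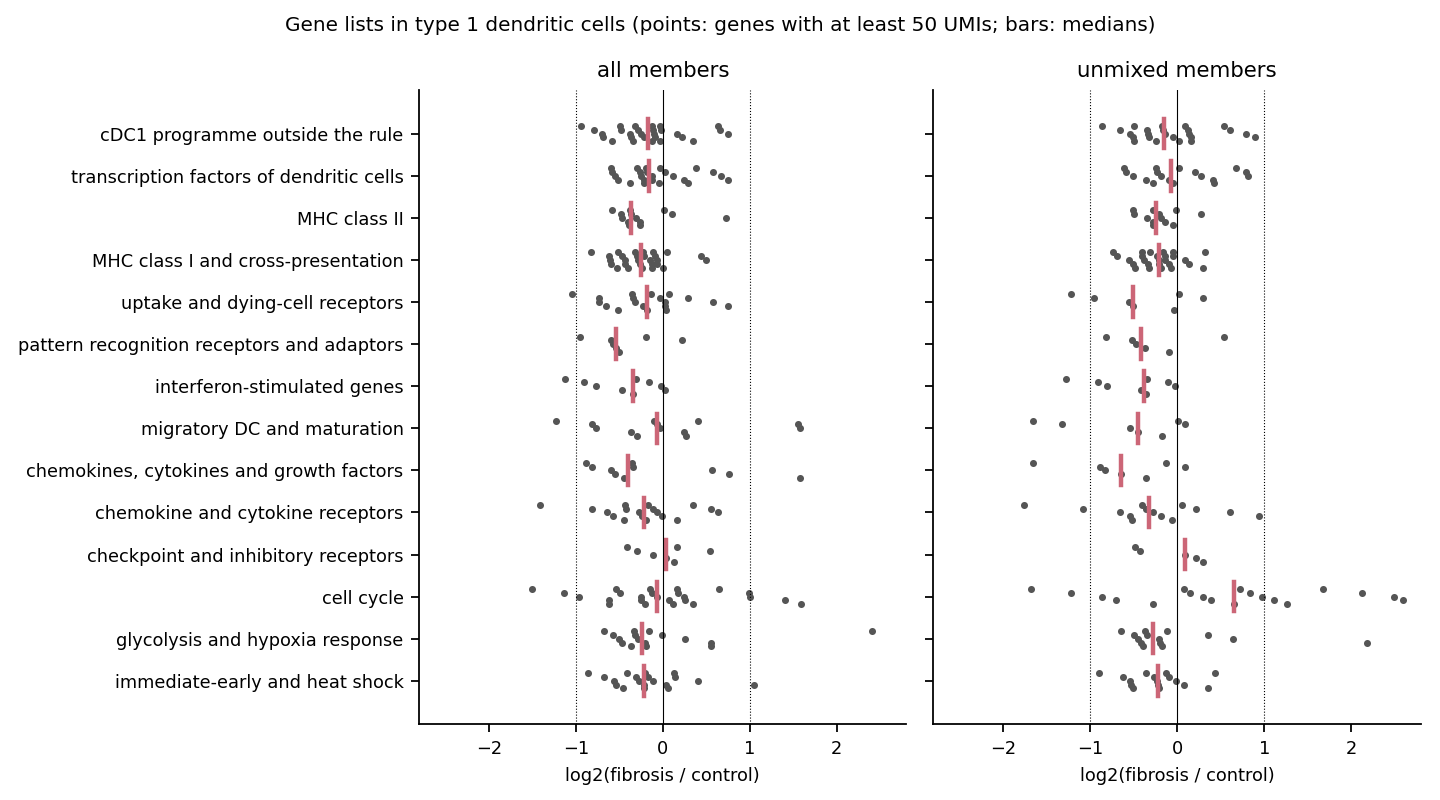
Log2 ratio of fibrosis to control (horizontal axis) for genes with at least 50 UMIs in each of 14 gene lists (rows), for all members (left) and unmixed members (right). Points are genes, red bars are list medians and dotted lines mark 2-fold. The medians of MHC class II and class I lie at -0.36 and -0.25 on the left, and the cell cycle median lies at -0.07 on the left and 0.65 on the right.

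Of 19 receptors for uptake tested, 1 was more than 2-fold lower, none higher, 4 had an interval below 0 and 2 above, with a median of -0.19. Only 7 had enough UMIs in unmixed members, of which 4 had an interval below 0 and none above, 1 was past 2-fold lower, and the median was -0.50. The lower one was Timd4, a receptor for phosphatidylserine on dying cells, at 57.9 and 28.2 CPM (-1.05, -1.73 to -0.34) and -1.23 in unmixed members. Axl, another receptor for dying cells, stood at 70.6 and 45.1 CPM (-0.65, -1.23 to -0.05), and had 12 and 10 UMIs in unmixed members. Cd207 had -0.52 (-0.92 to -0.10) in all and -0.56 in unmixed members. Cd36, a scavenger receptor used in uptake of apoptotic cells, stood at 217 and 212 CPM (-0.04, -0.34 to 0.28), with -0.50 (-0.92 to -0.07) in unmixed members. Fcer1g, the signalling chain of Fc receptors, had -0.22 in all and -0.95 (-1.23 to -0.67) in unmixed members. Among all members it did not depart from the other classes, with an excess of 0.06.

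Of 7 innate sensors and adaptors tested, 3 had an interval below 0, none above and none past 2-fold, with a median of -0.54. In unmixed members 2 of 6 lay below 0 and 1, Tlr3 with the values above, lay above. With cells thinned before the rule the median was 0.17. Unc93b1, which brings endosomal receptors such as TLR3 to their compartment, stood at 281 and 187 CPM (-0.59, -0.87 to -0.30), with -0.47 in unmixed members. Pycard, an inflammasome adaptor, stood at 170 and 120 CPM (-0.50, -0.86 to -0.13), with -0.36 (-0.80 to 0.09) in unmixed members. Of 41 interferon-stimulated genes 9 had enough UMIs to be tested, 4 had an interval below 0 and none above, and in unmixed members 4 of 8 below and none above. Ifi35 was the one past 2-fold, at 119 and 55.1 CPM (-1.12, -1.59 to -0.63), with -1.28 in unmixed members. Ifi27l2a stood at 223 and 131 CPM (-0.77, -1.09 to -0.43) and Phf11b at 79.6 and 42.6 CPM (-0.91, -1.47 to -0.32). The strongly induced genes of a type I interferon response were near the limit of counting, with 9 control and 21 fibrosis UMIs of Isg15 and 0 and 3 of Ifit1. Cxcl9, a chemokine induced by interferon-gamma, had 2 and 25 UMIs. It was seen in 2.38% of control members and in 0.463% of fibrosis members, which is 1 cell, and this cell was mixed.

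The receptors for these signals were in part lower. Ifnar1, a chain of the type I interferon receptor (chr16:91485238-91507441, plus strand, GENCODE M21), stood at 65.2 CPM in control and 24.4 CPM in fibrosis members. Its log2 ratio was -1.42 (-2.11 to -0.72) in all members and -1.76 (-2.62 to -0.94) in unmixed members, against a median of -0.10 over the other classes and -1.05 in type 2 dendritic cells. Its UMIs were 36 and 39, spread over 30 and 34 cells. The partner chain Ifnar2 stood at 57.9 and 52.0 CPM (-0.17, -0.76 to 0.48). Ifngr1, of the interferon-gamma receptor, stood at 286 and 193 CPM (-0.57, -0.85 to -0.28), and Tnfrsf1a, a TNF receptor, at 68.8 and 39.5 CPM (-0.81, -1.40 to -0.18). Ccr2, the receptor for monocyte-attracting chemokines, stood at 376 and 319 CPM (-0.24). Of 18 receptors tested, Ifnar1 alone was past 2-fold among all members, and 3 had an interval below 0. Of all genes tested, 1.10% were past 2-fold lower and 10.2% had an interval below 0. In unmixed members 2 of 14 receptors were past 2-fold lower, 3 had an interval below 0 and 1 above. Of all genes tested there, 1.57% were past 2-fold lower and 10.9% had an interval below 0. Counts this small do not set the receptors apart from all genes. No checkpoint receptor of 7 tested had an interval that excluded 0, among them Btla (-0.11) and Havcr2 (0.04).

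Among genes of maturation and migration, Ccr7 was 0 by the rule, so members are cells in which no UMI of it was seen. Fscn1, which migrating dendritic cells need for motility, had 1 control and 0 fibrosis UMIs, and Il12b, a subunit of IL-12, had 0 in both. Cd40 had 2 and 8 UMIs and Cd274, which encodes PD-L1, had 1 and 15. The costimulatory gene Cd86 stood at 109 and 105 CPM (-0.06, -0.49 to 0.40), and Cd83, a surface marker of maturation, at 50.7 and 47.6 CPM (-0.11, -0.73 to 0.59). Of 13 genes of this list tested, 2 were past 2-fold higher and 1 lower. In unmixed members none of 7 was higher and 2 were lower. Ccl5, a T cell chemokine, stood at 27.2 and 83.3 CPM (1.58, 0.84 to 2.49), but 2 fibrosis members held at least 50% of its 133 UMIs. In unmixed members its ratio was 0.36 (-0.71 to 1.68). Serpinb6b, a protease inhibitor, stood at 9.05 and 28.8 CPM (1.55, 0.34 to 3.36), and had only 3 and 15 UMIs in unmixed members, with an interval of -0.72 to 3.53. Marcksl1, a regulator of the actin cytoskeleton, stood at 99.6 and 42.6 CPM (-1.23, -1.76 to -0.68), with -1.32 in unmixed members.

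Ccl17 (chr8:94810453-94812036, plus strand) was lower in the fibrosis members and was held by few cells. It stood at 637 CPM in control and 362 CPM in fibrosis members (-0.82, -1.01 to -0.62), and at 817 and 259 CPM in unmixed members (-1.66, -1.90 to -1.41). UMIs of it were found in 23 of 84 control and 56 of 216 fibrosis members, and at least 50% of them lay in 3 and 5 members. Without the cell of most UMIs in each library the ratio was -0.64 in all members, and with no exclusion genes in the rule it was -0.36. In the fibrosis library 57.8% of its UMIs lay in mixed members, against 6.53% in the control. In type 2 dendritic cells, which were chosen in part by this gene, it stood at 1434 and 1100 CPM, a level set in part by the rule. In Ccr7-positive cells it stood at 988 and 3372 CPM. In alveolar macrophages it stood at 2.17 and 202 CPM, and the median log2 ratio over the other classes was 3.16. The neighbouring chemokine Ccl22 had 21 control and 13 fibrosis UMIs, at least 50% of them in 2 cells of each library.

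Of the other chemokines and growth factors, Tgfb1, which encodes TGF-beta 1 and in lung injury drives matrix production, stood at 208 CPM in control and 113 CPM in fibrosis members (-0.89, -1.23 to -0.53). The ratio was -0.88 in type 2 dendritic cells and had a median of -0.74 over the other classes. Cxcl16, a membrane-bound chemokine, stood at 221 and 173 CPM (-0.36, -0.67 to -0.03). Ccl9 stood at 63.4 and 94.6 CPM in all members (0.56, 0.04 to 1.15) and at 64.6 and 13.8 CPM in unmixed ones (-2.20, -3.31 to -1.21), so its direction turned when the mixed members were left out. Of 10 genes of this list tested, 1 was past 2-fold higher and none lower, and in unmixed members none was higher and 1 lower of 7.

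Cell cycle genes lay on both sides of 0. Of 25 tested in all members 3 were past 2-fold higher and 2 lower, 4 had an interval above 0 and 5 below, and the median was -0.07. Of 19 in unmixed members 6 were higher and 2 lower, 10 had an interval above 0 and 5 below, and the median was 0.65. Ube2c, a ubiquitin-conjugating enzyme of the anaphase-promoting complex, stood at 43.4 and 87.7 CPM (0.99, 0.38 to 1.70) in all members. In unmixed members it stood at 22.3 and 142 CPM (2.60, 1.70 to 3.83). These levels rest on 9 control UMIs in 4 cells and 134 fibrosis UMIs in 24 cells. Ccnb2, a mitotic cyclin, had 1.59 (0.66 to 2.84) in all and 2.50 (1.33 to 4.29) in unmixed members. Of its 5 UMIs in unmixed control members 4 lay in 1 cell. Cenpf, a kinetochore protein, had 1.40 (0.46 to 2.65) and 2.13 (1.04 to 3.73). Top2a, the topoisomerase of dividing cells, stood at 92.3 and 105 CPM in all members (0.17, -0.28 to 0.66) and had 0.97 (0.39 to 1.63) in unmixed ones. Mki67, which encodes the proliferation marker Ki-67, had 0.11 (-0.46 to 0.75) and 0.65 (-0.02 to 1.42).

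Genes of the helicase that licenses replication are described apart from the rest of the list, a choice made after their values were seen. Mcm7 stood at 77.8 and 27.6 CPM (-1.50, -2.14 to -0.86), and at 99.3 and 30.8 CPM in unmixed members (-1.68, -2.43 to -0.96). Mcm5 had -1.14 (-1.88 to -0.37) and Mcm6 -0.96 (-1.52 to -0.38), while the interval of Mcm3 included 0 (-0.62, -1.42 to 0.25). Pcna, the sliding clamp of the replication fork, had -0.54 (-1.08 to 0.04) in all and -0.87 (-1.53 to -0.18) in unmixed members. At least 50% of the control UMIs of Mcm7 lay in 5 of 84 members. With the cycling cells defined below left out, the ratio of Ube2c was -0.011 and that of Mcm7 was -2.02. Ube2c is among the 12 genes that define those cells, so its fall was in part set by the choice. Mcm7 is not among them, so these values cannot be set against each other.

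Cycling cells were counted as those with at least 3 UMIs of 12 mitotic genes after thinning to 1000 UMIs. The genes were Mki67, Top2a, Birc5, Cdk1, Ccna2, Ccnb2, Cenpf, Ube2c, Tpx2, Nusap1, Pbk and Hmmr. Cycling cells numbered 3 of 84 control members (3.57%, 0.743 to 10.1) and 21 of 216 fibrosis members (9.72%, 6.12 to 14.5). The difference was 6.15 percentage points with an interval of -1.05 to 11.4, which includes 0. Among unmixed members it was 1 of 63 (1.59%, 0.0402 to 8.53) against 19 of 144 (13.2%, 8.13 to 19.8), a difference of 11.6 points (3.35 to 18.2). Without thinning the counts were 6 of 84 and 32 of 216. Type 2 dendritic cells had 0 of 65 and 6 of 159, and B cells had 0.719% and 0.691%. At least 5 UMIs were reached by 3 control and 9 fibrosis members, a difference of 0.595 points. Leaving out mixed members kept 1 of the 3 control and 19 of the 21 fibrosis cycling cells. At least 5 UMIs were reached by 1 of 63 (1.59%, 0.0402 to 8.53) and 8 of 144 unmixed members (5.56%, 2.43 to 10.7). Without thinning the unmixed shares were 6.35% (1.76 to 15.5) and 18.1% (12.1 to 25.3). The 2 intervals overlap in each of these pairs.

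**Figure D5:**
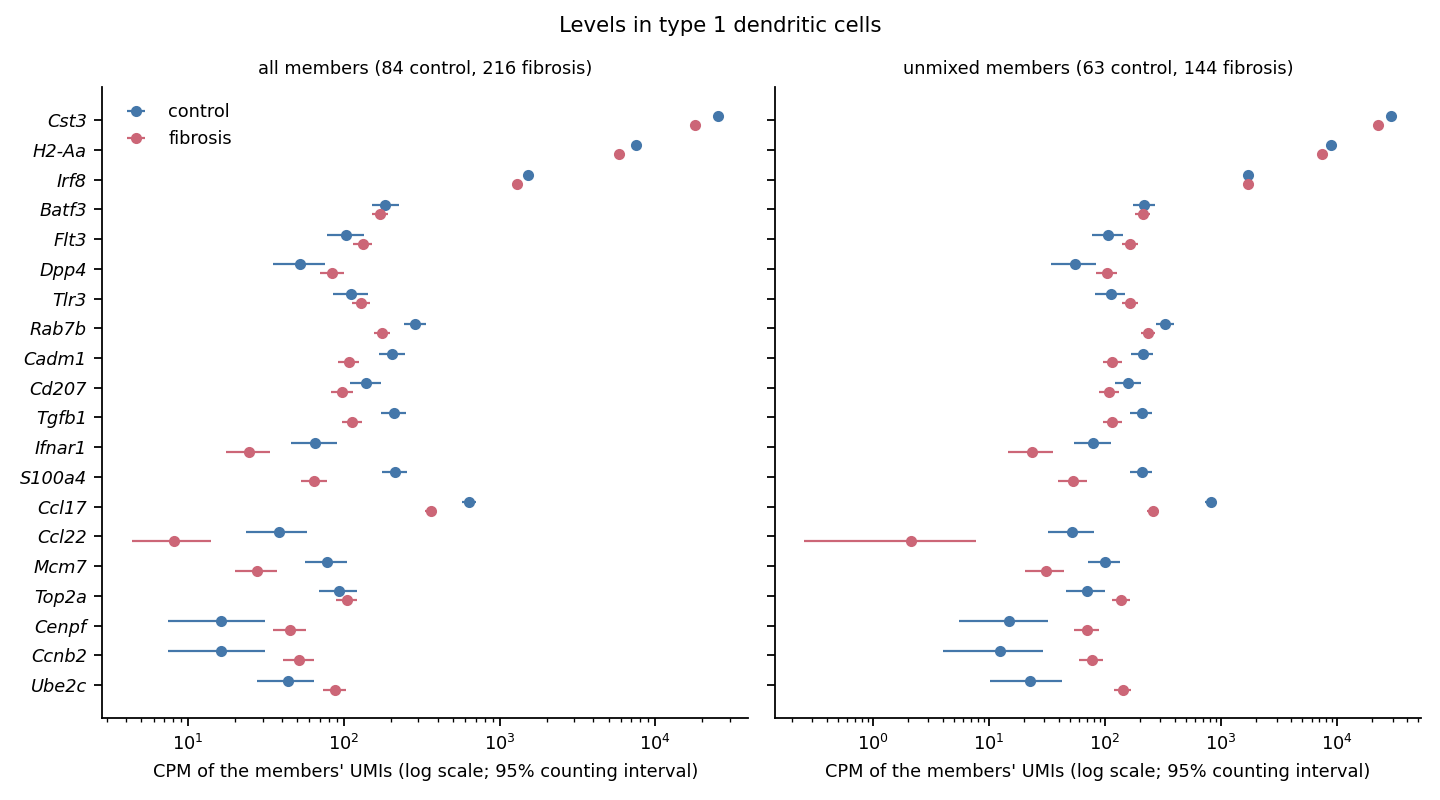
Level of 20 genes in type 1 dendritic cells, in CPM on a log axis, for the control (blue) and fibrosis library (red), in all members (left) and unmixed members (right). Points are the single library value and lines the exact 95% Poisson counting interval. Ifnar1, S100a4, Ccl17 and Mcm7 lie lower in the fibrosis library on both sides. Ube2c goes from 22.3 to 142 CPM in unmixed members, where the control level rests on 9 UMIs.

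Metabolic and stress genes mostly had small ratios. Of 16 genes of glycolysis and hypoxia tested, 6 had an interval below 0 and 2 above, and in unmixed members 4 below and 2 above of 14. With cells thinned before the rule the median turned from -0.24 to 0.17. The one past 2-fold was Pgk1, a glycolytic kinase, at 12.7 and 71.4 CPM (2.40, 1.41 to 3.84), with a median of 2.37 over the other classes. Tpi1 had -0.68 (-1.10 to -0.23) and Pkm -0.57 (-0.84 to -0.29), while Eno1, which acts beside them, had 0.55 (0.17 to 0.97). Of 19 immediate-early and heat shock genes tested, 6 had an interval below 0, 2 above and 1 was past 2-fold higher. In unmixed members 6 lay below and 1 above of 16, and none was past 2-fold. Nfkbia, the inhibitor that NF-kappa-B itself induces, stood at 295 and 185 CPM (-0.68, -0.96 to -0.39), with -0.90 in unmixed members. Hsp90ab1, a chaperone, stood at 1794 and 1237 CPM (-0.54, -0.65 to -0.42), with -0.51 in unmixed members.

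Further genes stood out from the other classes. S100a4 had -1.73 (-2.12 to -1.33) in all and -1.95 (-2.49 to -1.43) in unmixed members, against a median of -0.74 over the other classes. At least 50% of its control UMIs lay in 5 members. Lmna, which encodes lamins of the nuclear envelope, stood at 234 and 118 CPM (-0.98, -1.31 to -0.65) against 0.30 over the other classes. Ifitm2, an interferon-induced membrane protein, had -0.72 (-1.08 to -0.35) in all and -1.64 (-2.27 to -1.04) in unmixed members. Over the other classes its median was -0.19, so its excess among all members was only -0.53. Fdps, an enzyme of the sterol pathway, had -0.58 (-1.09 to -0.04) in all and -1.30 (-1.98 to -0.62) in unmixed members, against 0.74 over the other classes. Epcam, an epithelial adhesion molecule that some dendritic cells carry, had -0.43 (-0.82 to -0.01), against 0.82 over the other classes. How far epithelial RNA carried over into the other classes set that value was not tested. On the higher side, Ms4a6c stood at 114 and 162 CPM (0.49, 0.10 to 0.92) against -0.77 over the other classes, and Ms4a6d of the same family at 34.4 and 79.6 CPM (1.18, 0.51 to 1.99). Mgl2, a lectin of type 2 cells, did not stand apart from the other classes, with 1.08 (0.50 to 1.76) in members and 1.22 over the other classes.

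The largest ratios among all members belonged to genes of other cells, and the ratios of the genes named next were smaller in unmixed members. Because unmixed members were chosen for few markers of other cells, this was in part set by the choice. Retnla, a product of alternatively activated macrophages, had 1 control and 767 fibrosis UMIs, and 85.4% of the fibrosis UMIs lay in mixed members. In unmixed members it had 1 and 112 UMIs, a log2 ratio of 5.00 (3.08 to 10.9), and 52.8% of the unmixed fibrosis members held it. After thinning it was seen in 11.6% of fibrosis members and in 19.6% of B cells, so its share in members was not above that of a class that should lack it. Mmp12, a macrophage elastase, had 0 control and 362 fibrosis UMIs, of which 97.0% lay in mixed members and 229 in 1 cell. Spp1, which encodes osteopontin, had a log2 ratio of 3.38 in all and -0.11 in unmixed members. Scgb1a1, the secretoglobin of airway club cells, had 1.81 and -0.41. Of its 17921 fibrosis UMIs 9469 lay in 1 cell. Without the cell of most UMIs in each library its ratio in all members was 0.77. Sftpc, whose ratio was not among the largest, had 0.57 and 0.10. Of its 3372 control UMIs 2143 lay in 1 cell, and without the top cells its ratio in all members was 1.55. After thinning Sftpc was seen in 61.9% and 70.8% of members against 81.3% and 82.0% of B cells.

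Summed levels of the whole marker lists of other cells were as follows. Unmixed members were chosen for few such markers, so lower sums in them were in part fixed by the criterion. The 10 alveolar macrophage markers summed to 1703 CPM in control and 4622 CPM in fibrosis members, and to 102 and 283 CPM in unmixed ones. The 15 epithelial markers summed to 11227 and 23982 CPM, and to 4766 and 4105 CPM in unmixed ones. The 10 neutrophil markers summed to 4116 and 2419 CPM, and to 435 and 236 CPM. The 10 monocyte markers summed to 1522 and 4343 CPM, and to 529 and 638 CPM, a sum that holds Chil3, which is on both this list and that of alveolar macrophages. Without Chil3 the other 9 summed to 512 and 456 CPM, and to 487 and 445 CPM in unmixed members. The 10 interstitial macrophage markers summed to 657 and 284 CPM, and to 32.3 and 63.7 CPM. Few control cells held the first of these sums. Of the control UMIs, 172 of 208 of Apoe lay in 1 member, and all 45 of C1qa lay in 1 member. By the criterion 1 control and 8 fibrosis members held interstitial macrophage markers. The 8 T and NK cell markers in the files summed to 23.5 and 65.8 CPM, with Cd3e at 0 by the rule, the 6 B cell markers to 7.24 and 23.8 CPM, with Cd79a at 0 by the rule, and the 11 markers of endothelium and stroma to 114 and 98.3 CPM. The 8 plasmacytoid dendritic cell markers summed to 154 and 122 CPM, with Siglech at 0 by the rule. Their part in the gene ratios above was not tested beyond leaving out the mixed members.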

How the data were processed

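Single-cell RNA libraries of mouse lung, 1 control and 1 fibrosis, made with 10x Genomics 3′ V2 chemistry per the labels, were analysed from the deposited raw counts, which are whole UMI counts per gene and cell without normalisation. Cell Ranger 1.3, bcl2fastq and the mm10 build are named in the submitters' processing notes, and how cells were selected before deposit is not given in the sources used here. The libraries held 36632591 and 38090308 UMIs in 8280 and 7173 cells, and 8026 and 6945 cells with at most 10% mitochondrial UMIs were kept. Members were found by the rule in each library, and 11 marker rules gave the comparison classes, of which 9 had at least 50 cells in each library and gave the median ratio of other classes. UMIs were summed over cells of a class and scaled to CPM. Ratios had 0.5 UMI added and an exact conditional interval, levels an exact Poisson interval and shares a Clopper-Pearson interval, at 95%. Differences between shares had a 95% interval built from the Wilson limits of each share, which is not exact. These cover counting error only. A floor of 50 UMIs over both libraries was used, and 2-fold was the call. Doublets were scored with scanpy 1.11.5 as an alternative with 0.8% expected per 1000 cells, since the caller's own threshold marked 5 and 168 cells, and removed 515 and 386 cells. The calculation of ratios was tested on simulated data. Genes were matched to GENCODE M21 (27645 of 27998 identifiers, 98.7%), and promoters came from RefSeq. Python 3.11.15, numpy 2.4.6, scipy 1.17.1, pandas 2.3.3 and matplotlib 3.10.9 were used.

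The members and gene lists were chosen with earlier results of these data known. Genes were named by the 10 highest and 10 lowest ratios and excesses, members of 26 lists past 2-fold or of highest level, and the leading companion, type 2 and dispersion genes. Others named were chosen after their values were seen, as was the criterion for mixed members. The alternatives changed the rule, the filters, the scaling and the UMI floor. A gene withheld from this text is not reported here.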

Additional observations from a re-analysis of the deposited data

How the results depend on the processing

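No paired analysis was possible because each group holds 1 library and no test was made. The difference in share, 2.06 percentage points, was 1.29 with at least 2 UMIs of Xcr1 and Clec9a, 2.70 with at most 5% mitochondrial UMIs, 0.700 with cells thinned to 1000 UMIs, 1.29 in unmixed members and 3.23 among Ptprc-positive cells, and -5.76 among cells of the 3 dendritic cell rules. It kept its size in the other 5 alternatives. The number of genes past 2-fold higher, 170 in the report, was 60 with at least 2 rule UMIs, 103 with 3 helpers, 102 with the 5% limit, 9 with thinning, 56 in unmixed members, 544 with a floor of 20 UMIs and 33 with 200. The number lower, 48, was 189 with no exclusion genes, 4 with thinning, 218 with 20 UMIs and 11 with 200. The number above the other classes, 88, was 25, 44, 54, 2, 35, 400 and 10 under the alternatives of the first of these counts, in the same order. The number below the other classes, 71, was 205, 2, 272 and 21 under those of the second. The number of genes tested differed among these alternatives, because fewer cells or UMIs leave fewer genes above the floor. These counts are thus not shares of 1 fixed number of genes. The 170 were 3.90% of 4354 genes, and the 56 of unmixed members were 2.00% of 2803. The cycling difference of 6.15 points was 11.6 in unmixed members. The 104 genes lower than in type 2 cells were 186 with unmixed members, where the type 2 cells were not filtered.

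Among 119 genes, named or members of the lists described, these ratios changed sign. With thinning H2-Aa was 0.044, H2-DMa 0.046, Rab7b 0.62, Id2 0.28, Scgb1a1 -0.67, Sftpc -0.11, Irf8 0.012 and Cd24a -0.35. With at least 2 rule UMIs H2-Eb1 was 0.000734, Scgb1a1 -0.52, Irf8 0.054 and Ccl9 -0.86. Scgb1a1 was -0.50 with 3 helpers and -0.45 with the 5% limit. In unmixed members Id2 was 0.026, Scgb1a1 -0.41, Ccl9 -2.20, Cd209a -0.55 and Spp1 -0.11. With cycling cells left out Ube2c, which helps to define them, was -0.011 and Hmgb2 -0.17. After subtracting the other classes Fcer1g was 0.058, AY036118 -0.17, Hist1h2ap -0.33, Mgl2 -0.14, Cd24a -0.059 and Cd209a -0.62. The median of the interstitial macrophage markers was 0.88 in unmixed members, and that of free RNA candidates -0.55 with thinning and -0.0024 in unmixed members. With thinning the median of the type 1 programme turned from -0.17 to 0.27, that of sensors from -0.54 to 0.17 and that of glycolysis from -0.24 to 0.17. The median of the alveolar macrophage markers, 0.38, was -0.35 with at least 2 rule UMIs, -0.16 with 3 helpers and -0.40 after subtracting the other classes. The cause was not tested. Scaling by the median or a trimmed mean shifted all ratios by -0.05. Genes with under 20 UMIs in an alternative gave no value in 93 cases. Depth limits the control library most, where 84 cells carry each level.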
